A study of Mus musculus with 12 samples.

Results

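The 10 genes described here act on the surface, at the tapered base and around the kinocilium of the hair bundle, and were taken by symbol from a fixed list: Strc, Ptprq, Pkhd1l1, Grxcr1, Grxcr2, Tprn, Triobp, Myo6, Kncn and Gpsm2. All 10 were among the 28342 genes listed for the cochlea and the 24726 listed for the vestibule, and all 10 were tested in both organs. The libraries hold RNA bound to ribosomes that carry an HA tag, pulled down with an antibody against HA from mice in which Cre switches the tag on (the RiboTag system). In each organ 3 libraries of Gfi1 mutants (Gfi1Cre/Cre;RiboTagHA/HA) were set against 3 of heterozygotes (Gfi1Cre/+;RiboTagHA/HA), all at P0-P1, which is the day of birth or the day after. Cre was placed in the Gfi1 gene, which encodes a transcriptional repressor needed by hair cells, so both genotypes carry Cre and 2 RiboTag alleles, and mutants carry Cre on both copies of Gfi1. Cre itself was not measured here, and an effect of its copy number and of losing Gfi1 cannot be told apart. The number of animals per library was not stated in the labels.

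The hair bundle is the mechanical sensor of the inner ear: rows of actin-filled stereocilia rise from the top of each hair cell, and during development a true cilium, the kinocilium, stands beside the tallest row. Extracellular links and a surface coat join the stereocilia to each other and to the overlying gel. Each stereocilium narrows to a taper at its base, where rootlets and the membrane are anchored in the cell. The cochlea serves hearing and the vestibule balance, and the cochlear kinocilium is lost during maturation while the vestibular kinocilium stays.

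Gfi1 itself had 75.1, 64.3 and 69.1 CPM (counts scaled to the library total) in mutant cochleae, against 165, 106 and 126 CPM in heterozygous cochleae. In the vestibule Gfi1 had 236, 198 and 208 CPM in mutants, against 534, 449.8 and 483 CPM in heterozygotes. Every mutant library lay below every heterozygous library in both organs, which is the direction the labels give. The log2 fold change of Gfi1 was -0.90 (SE 0.16, adjusted p 0.00355) in the cochlea and -1.19 (SE 0.13, adjusted p 0.00234) in the vestibule, by limma on log2(CPM + 1) with Benjamini-Hochberg adjustment. Library totals were 7531518 to 9363796 reads in the cochlea and 18951026 to 29370267 reads in the vestibule, so 1 read was worth 0.107 to 0.133 CPM and 0.0340 to 0.0528 CPM. Cochlear libraries were made with a NuGEN Ovation Ultralow kit and vestibular libraries with a NEBNext Ultra Directional kit, so organ and kit cannot be told apart and levels were not compared between organs. All 8 hair cell markers (Pou4f3, Myo7a, Atoh1, Lhx3, Barhl1, Cib2, Pvalb and Rasd2) were above 0 in all 12 libraries. Both vestibular replicate 1 libraries stood apart, with 0.729% of reads outside the listed genes in the mutant and 0.684% in the heterozygote, against 0.119% to 0.127% in the other 4. Both cochlear replicate 3 libraries stood apart in 7 mitochondrially encoded transcripts, whose sum was 6805 CPM in the mutant and 6566 CPM in the heterozygote, against 22085 to 30893 CPM in the other 4. Where leaving out both libraries of such a pair changes a call on 1 of the 10 genes, the value without them stands beside the result.

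Promoters are shown for the 3 genes that were called lower in the cochlea and had an entry in the RefSeq promoter table (GRCm38.p6), so that the sequence upstream of genes that fell in the same libraries can be read. Each is the 250 bases before the RefSeq start, 5′ to 3′ on the strand of the gene. Strc lies at chr2:121380941-121381190 on the minus strand, Kncn at chr4:115884150-115884399 on the plus strand and Grxcr1 at chr5:68031585-68031834 on the plus strand. The Strc window lies inside the span that the GENCODE annotation gives this gene (chr2:121363728-121387168), so it is upstream of the RefSeq start only. Capitals mark the only match to any of the searched motifs.
Strc: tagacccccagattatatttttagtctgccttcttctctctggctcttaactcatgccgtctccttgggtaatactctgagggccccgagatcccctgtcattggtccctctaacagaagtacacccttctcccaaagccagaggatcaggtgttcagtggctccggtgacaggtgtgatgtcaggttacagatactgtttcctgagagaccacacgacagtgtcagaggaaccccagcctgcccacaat
Kncn: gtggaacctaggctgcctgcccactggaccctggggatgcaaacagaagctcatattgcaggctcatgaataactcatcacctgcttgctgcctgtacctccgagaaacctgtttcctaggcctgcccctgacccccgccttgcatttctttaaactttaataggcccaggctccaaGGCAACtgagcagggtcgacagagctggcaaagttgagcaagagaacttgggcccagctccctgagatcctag
Grxcr1: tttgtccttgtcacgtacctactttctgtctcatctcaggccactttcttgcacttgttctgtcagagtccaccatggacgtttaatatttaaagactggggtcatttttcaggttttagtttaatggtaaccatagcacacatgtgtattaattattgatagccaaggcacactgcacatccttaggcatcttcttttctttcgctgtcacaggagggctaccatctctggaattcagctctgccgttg
The motifs searched, on both strands, were AATCAC, the core of sites known for GFI1; CAGCTG, an E-box of the kind bound by basic helix-loop-helix factors, which is its own reverse complement; and GTTGCC, a half-site of the RFX factors of ciliated cells. In promoters of the same length AATCAC occurred in 9.14% of 32851, CAGCTG in 13.0% and GTTGCC in 10.4%. Across the 8 promoters of the 7 genes that matched the table, the single match was GGCAAC, the opposite strand of GTTGCC, 73 bases before the start of Kncn. GC content was 51.6% for Strc, 54.8% for Kncn and 42.8% for Grxcr1, with a median of 52.4% over all promoters in the table.

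In the cochlea all 10 genes were lower in mutants: every mutant library lay below every heterozygous library for each of them. Each was therefore also lower in all 3 pairs of libraries with the same number. Over all genes tested, 7.77% were lower without overlap. At a Benjamini-Hochberg adjusted p under 0.05 in limma, 6 of the 10 fell (Kncn, Strc, Pkhd1l1, Grxcr1, Grxcr2 and Ptprq) and 0 rose, beside 2.52% of all genes tested called lower and 1.90% called higher. Since all 10 were lower without overlap, it follows that 0 were higher at an unadjusted p under 0.05 (beside 6.55% of all genes). The same holds for edgeR, which called 0 higher (beside 1.67%). With the replicate number as a block all 10 were called lower, beside 4.31% of genes in that fit, and edgeR on the recovered reads called 8, beside 2.85%. The median log2 fold change of the 10 genes was -1.03, against 0.05 over all genes tested. In these bulk pull-downs fewer hair cells and less RNA per cell cannot be told apart, and the sum of 8 hair cell markers was also lower, at 663 to 767 CPM in mutant cochleae and 944 to 1126 CPM in heterozygous cochleae. Of these markers 3 were called lower and Barhl1 was lower without a call. Pou4f3, Lhx3 and Cib2 overlapped between genotypes, and Atoh1 was higher without overlap. Fold changes here are mutant minus heterozygote on log2(CPM + 1), where the added 1 shrinks the change of weakly expressed genes.

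**Figure D1:**
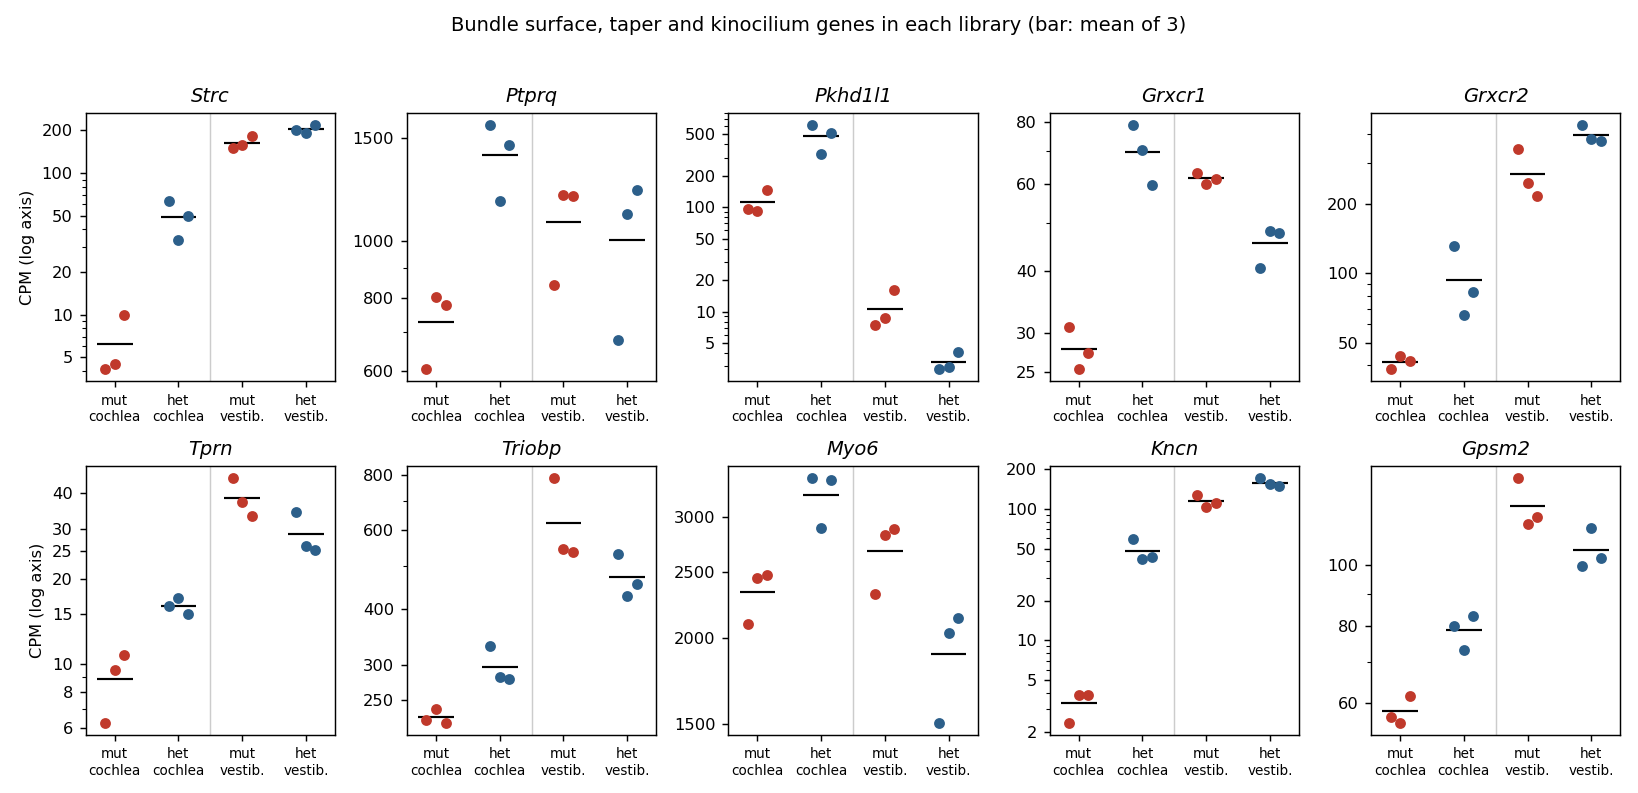
CPM on a log axis for each of the 10 genes in the 12 libraries, with mutant (red) left of heterozygote (blue) in each organ, points in replicate order and a bar at the mean of 3 libraries. In the cochlea the mutant points of every gene lie below the heterozygous points, while in the vestibule they lie above for 5 genes, below for 3 and overlap for Ptprq and Tprn.

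Among the surface genes, Strc encodes stereocilin, a secreted protein of the top connectors between stereocilia and of the tips that attach outer hair cells to the tectorial membrane. Strc had 4.12, 4.52 and 9.96 CPM in mutant cochleae, or 33, 35 and 86 reads, against 63.3, 33.9 and 49.8 CPM in heterozygous cochleae, or 498, 255 and 466 reads. Mutant replicate 3 was the highest of the mutant libraries and still lay far below the lowest heterozygous library. The means were 6.20 ± 3.26 CPM in mutants and 49.0 ± 14.7 CPM in heterozygotes (SD, n = 3 each), so that mutants kept 12.7% of the heterozygous level, with a log2 fold change of -2.84 (SE 0.29, adjusted p 6.17e-05). Without both replicate 3 libraries the change was -3.15 and the adjusted p 5.4e-07. Strc, at chr2:121363728-121387168 on the minus strand of GRCm38, has a near-identical copy in the genome, and its counts are uncertain to that extent. Of its 50-base transcript words 0.265% occurred in transcripts of other annotated genes, and copies outside annotated transcripts were not searched.

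Pkhd1l1 encodes fibrocystin-L, a very large membrane protein of the stereocilia coat in mouse cochlear hair cells. It had 95.9, 91.6 and 147 CPM in mutant cochleae, against 615, 323 and 510.3 CPM in heterozygous cochleae. All mutant libraries lay well below the lowest heterozygous library. Means were 112 ± 31.1 CPM in mutants and 483 ± 148 CPM in heterozygotes (SD, n = 3 each), or 23.1% of the heterozygous level, and the log2 fold change was -2.09 (SE 0.22, adjusted p 7.75e-05). Ptprq, a receptor phosphatase of the shaft connectors near the stereocilia base, had 604, 803 and 777 CPM in mutant cochleae, against 1579, 1172 and 1461 CPM in heterozygous cochleae. It remained abundant in mutants, at 51.8% of the heterozygous mean. Its log2 fold change was -0.95 (SE 0.16, adjusted p 0.00288), the smallest among the 6 called. Pkhd1l1 spans chr15:44457494-44601369 on the plus strand with 75 merged exons, and Ptprq spans chr10:107517049-107720051 on the minus strand with 46.

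Kncn, which encodes kinocilin, a protein of the kinocilium and of apical microtubules, fell furthest of the 10. It had 2.37, 3.87 and 3.82 CPM in mutant cochleae, or 19, 30 and 33 reads. Heterozygous cochleae had 59.3, 41.7 and 42.8 CPM, or 467, 314 and 401 reads. Each mutant library thus held a small remainder of the transcript, and the groups were far apart. The means of 3.36 ± 0.850 CPM in mutants and 47.9 ± 9.87 CPM in heterozygotes (SD, n = 3 each) put mutants at 7.00% of the heterozygous level. The log2 fold change was -3.49 (SE 0.22, adjusted p 1.5e-06). Kncn lies at chr4:115884400-115889526 on the plus strand and has 4 merged exons.

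Gpsm2 encodes LGN, which with inhibitory G proteins shapes the bundle edge and marks the tips of the tallest row. It had 57.1, 55.9 and 61.7 CPM in mutant cochleae, against 79.9, 73.0 and 82.9 CPM in heterozygous cochleae. The groups did not overlap, but the log2 fold change of -0.43 (SE 0.13, adjusted p 0.0898) missed the threshold in limma. It was called with the replicate block (adjusted p 0.0103), as well as by edgeR (0.0313) and DESeq2 (0.0251) on the recovered reads. Of its exon bases 5.19% overlap Clcc1 on the opposite strand, and since no label states whether counting used strand, its counts are uncertain to that extent.

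At the taper, Grxcr1 and Grxcr2 encode cysteine-rich glutaredoxin-like proteins of stereocilia, and GRXCR2 is known to hold taperin at the base. Grxcr1 had 30.7, 25.3 and 27.2 CPM in mutant cochleae, against 79.0, 70.4 and 59.7 CPM in heterozygous cochleae. The mutant libraries lay close together, all below the lowest heterozygous one. The log2 fold change of Grxcr1 was -1.29 (SE 0.15, adjusted p 0.00016), with mutants at 39.8% of the heterozygous mean. Grxcr2 had 38.4, 43.6 and 41.6 CPM in mutant cochleae, against 132, 65.9 and 83.3 CPM in heterozygous cochleae. Heterozygous replicate 1 stood above the other heterozygous libraries, and all 3 still lay above the mutants. The log2 fold change of Grxcr2 was -1.11 (SE 0.20, adjusted p 0.00509), with mutants at 44.0% of the heterozygous mean. Grxcr1 lies at chr5:68031835-68166398 on the plus strand and Grxcr2 at chr18:41985323-41999049 on the minus strand.

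Tprn, Triobp and Myo6 were lower in every mutant cochlea by smaller amounts. Tprn, which encodes the taper protein taperin, had 6.25, 9.55 and 10.8 CPM in mutants, against 16.0, 17.1 and 15.1 CPM in heterozygotes. Its log2 fold change was -0.82 (SE 0.22, adjusted p 0.0593). It was called with the replicate block (adjusted p 0.00786), by edgeR (0.0417), by DESeq2 (0.0111) and without both replicate 3 libraries (0.0384). Triobp, which encodes the protein that bundles actin in stereocilia rootlets, had 226, 239 and 223 CPM in mutants, against 331, 281 and 278 CPM in heterozygotes. Mutants kept 77.2% of the heterozygous Triobp level, with a log2 fold change of -0.37 (SE 0.12, adjusted p 0.14), and the block gave an adjusted p of 0.0131. Triobp has different annotated starts, and counts per gene do not separate their transcripts. Myo6 encodes the myosin that walks toward the pointed end of actin and anchors the membrane at the stereocilia base. It had 2094, 2445 and 2473 CPM in mutants, against 3418, 2890.0 and 3394 CPM in heterozygotes. Its log2 fold change was -0.47 (SE 0.17, adjusted p 0.188), and it was called with the block (adjusted p 0.00916) and by DESeq2 (0.00585). These 3 genes and Gpsm2 thus differed without overlap but were not called in limma without the block.

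Within each cochlear genotype the libraries were ordered alike for many of the 10 genes. Heterozygous replicate 1 was the highest heterozygous library for 8 of them and replicate 2 the lowest for 7. Among mutants replicate 1 was lowest for 6 and replicate 3 highest for 5. Summed over the 10 genes, mutant cochleae held 3159 to 3775 CPM, against 4969 to 6372 CPM in heterozygous cochleae. Most of this sum was Myo6 and Ptprq. Without them it was 461 to 525 CPM in mutants and 907 to 1375 CPM in heterozygotes.

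In the vestibule the same 10 genes did not move together. Of the 10, 5 lay higher in every mutant library than in every heterozygous library (Pkhd1l1, Grxcr1, Triobp, Myo6 and Gpsm2), beside 10.7% of all genes tested. Strc, Kncn and Grxcr2 lay lower without overlap, beside 11.6% of all genes tested, and Ptprq and Tprn overlapped. At an adjusted p under 0.05 in limma 1 gene rose (Pkhd1l1) and 0 fell, beside 2.41% of genes called higher and 1.09% called lower. At an unadjusted p under 0.05, limma had 4 higher, beside 7.90% of all genes, and 3 lower, beside 8.20%. Higher genes numbered 1 in edgeR, beside 2.51%, and 3 in DESeq2, beside 5.22%. Both tools called 0 of the 10 lower, beside 0.853% in edgeR and 2.72% in DESeq2. With the replicate block 5 were called higher and 3 lower, but that fit called 10.5% of all genes higher and 12.8% lower. The median log2 fold change of the 10 was 0.31, against -0.06 over all genes tested. The sum of the 8 hair cell markers was higher as well, at 2506 to 3307 CPM in mutant vestibules and 1575 to 1880 CPM in heterozygous vestibules.

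Pkhd1l1 was the rise that passed the test. Mutant vestibules had 7.44, 8.71 and 16.0 CPM, or 141, 205 and 390 reads, against 2.81, 2.94 and 4.15 CPM, or 63, 70 and 122 reads, in heterozygous vestibules. The groups did not overlap, and mutant replicate 3 was the highest. Means were 10.7 ± 4.60 CPM in mutants and 3.30 ± 0.741 CPM in heterozygotes (SD, n = 3 each), a 3.24-fold difference with a log2 fold change of 1.39 (SE 0.30, adjusted p 0.0474). The call was lost on leaving out mutant replicate 2 (adjusted p 0.127), mutant replicate 3 (0.14) or heterozygous replicate 1 (0.0884), 2 (0.191) or 3 (0.0871). It was also lost with a pseudocount of 4 (0.0575) and with no filter on low values (0.147). With the block the adjusted p was 0.000185, with edgeR 0.0388, and without both replicate 1 libraries 0.0408.

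Strc, Kncn and Grxcr2 lay lower in mutant vestibules. Strc had 151, 157 and 184 CPM in mutants, against 199.9, 192 and 219 CPM in heterozygotes, with a log2 fold change of -0.31 (SE 0.12, adjusted p 0.27) that did not pass the test and an adjusted p of 0.00874 with the block. Mutants kept 80.7% of the heterozygous Strc level. Kncn had 129, 104 and 110.4 CPM in mutants, against 171, 154 and 150.4 CPM in heterozygotes, with a log2 fold change of -0.47 (SE 0.13, adjusted p 0.101). It was called with the block (adjusted p 0.000625) and without both replicate 1 libraries (0.0275). The mutant libraries of both genes stayed close to the heterozygous ones. Grxcr2 had 347, 247 and 215 CPM in mutants, against 439, 382 and 374 CPM in heterozygotes, and its log2 fold change was -0.59 (SE 0.18, adjusted p 0.153). Mutant replicate 1 was the highest of the mutant libraries, and without both replicate 1 libraries the change was -0.71 with an adjusted p of 0.00893; with the block the adjusted p was 0.000263.

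Grxcr1, Myo6, Triobp and Gpsm2 lay higher in every mutant vestibule without passing the test. Grxcr1 had 63.3, 59.9 and 61.5 CPM in mutants, against 40.6, 48.2 and 47.8 CPM in heterozygotes, a log2 fold change of 0.43 (SE 0.13, adjusted p 0.136), called with the block (0.00683) and by DESeq2 (0.0189). Myo6 had 2319, 2829 and 2884 CPM in mutants, against 1508, 2036 and 2141 CPM in heterozygotes. In both genotypes replicate 1 was the lowest library for Myo6. Its log2 fold change was 0.51 (SE 0.19, adjusted p 0.235), with adjusted p 0.00103 in the block, 0.0308 in DESeq2 and 0.047 without both replicate 1 libraries. Triobp had 785, 545 and 537 CPM in mutants, against 531, 427 and 456 CPM in heterozygotes, a log2 fold change of 0.38 (SE 0.18, adjusted p 0.343) with an adjusted p of 0.00369 in the block. Here replicate 1 was the highest in both genotypes. Gpsm2 had 138, 116 and 119 CPM in mutants, against 99.7, 115 and 103 CPM in heterozygotes, a log2 fold change of 0.23 (SE 0.13, adjusted p 0.423) that was not called with the block either (0.0852).

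Tprn and Ptprq overlapped between genotypes in the vestibule. Tprn had 45.2, 37.5 and 33.3 CPM in mutants, against 34.5, 26.2 and 25.3 CPM in heterozygotes. Each mutant library was higher than the heterozygous library with its number, and the log2 fold change of 0.42 (SE 0.18, adjusted p 0.308) passed the threshold with the block (0.0135). Ptprq had 842, 1200.1 and 1195 CPM in mutants, against 678, 1111 and 1222 CPM in heterozygotes. Replicate 1 was far below the others in both genotypes, and the log2 fold change of 0.13 (SE 0.25, adjusted p 0.869) turned to -0.13 on leaving out heterozygous replicate 1. With the block its adjusted p was 0.3, so no difference in Ptprq was detectable in the vestibule.

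**Figure D2:**
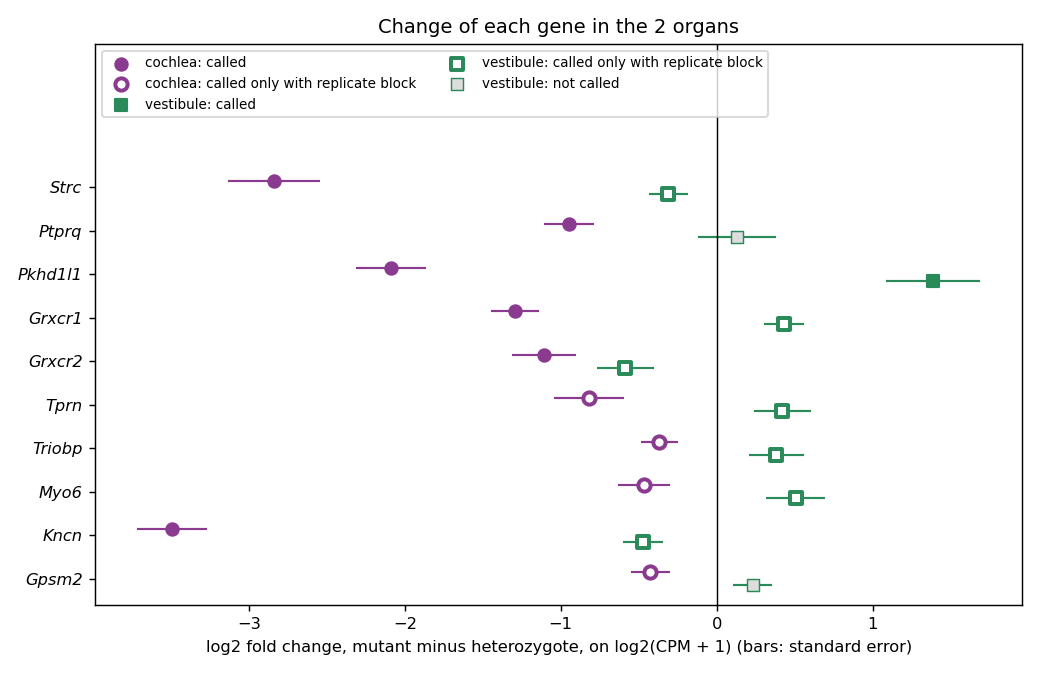
Log2 fold change, mutant minus heterozygote on log2(CPM + 1), of each gene in the cochlea (circles) and vestibule (squares), with bars for the standard error, filled where called in limma, open with a thick rim where called with the replicate block alone, and grey where not called. All 10 cochlear values lie below 0, from -0.37 for Triobp to -3.49 for Kncn, and 7 of the 10 vestibular values lie above 0.

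The cochlear change minus the vestibular change, an interaction term in a fit of all 12 libraries, was negative for all 10 genes and called for 6, beside 2.43% of the genes tested in both organs called in that direction. Kncn differed by -3.02 (SE 0.25, adjusted p 1.58e-05), Strc by -2.53 (SE 0.36, adjusted p 0.000954), Pkhd1l1 by -3.48 (SE 0.40, adjusted p 0.000216) and Grxcr1 by -1.72 (SE 0.20, adjusted p 0.00023), and these 4 were called under all 23 alternatives. Strc and Kncn were lower in mutants of both organs, to a far smaller degree in the vestibule, whereas Pkhd1l1 fell in the cochlea and rose in the vestibule. Tprn differed by -1.24 (SE 0.29, adjusted p 0.0278), a call lost on leaving out any of 7 single libraries (mutant cochlea 1, heterozygous cochlea 1 or 2, mutant vestibule 1 or 2, heterozygous vestibule 2 or 3), with adjusted p up to 0.0847. Gpsm2 differed by -0.66 (SE 0.17, adjusted p 0.0497), a call that was lost on leaving out any of the 12 libraries (adjusted p 0.0616 to 0.118). Without both vestibular replicate 1 libraries the adjusted p of Gpsm2 was 0.111, and without both cochlear replicate 3 libraries it was 0.144. It was also lost at a pseudocount of 0.25 and with no filter on low values.

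The other 4 genes missed the threshold for a difference between organs in limma. Ptprq differed by -1.08 (SE 0.33, adjusted p 0.114), Triobp by -0.75 (SE 0.22, adjusted p 0.101) and Myo6 by -0.98 (SE 0.31, adjusted p 0.123). With the block the adjusted p was 0.000701 for Ptprq, 0.000833 for Triobp and 0.00051 for Myo6, which brought the called genes to 9 beside 6.43% of all genes. DESeq2 on the recovered reads called all 3 (adjusted p 0.00449 for Ptprq, 0.0243 for Triobp and 1.96e-05 for Myo6), and edgeR called Myo6 (0.0278). Without both vestibular replicate 1 libraries limma called Ptprq (log2 difference -0.99, adjusted p 0.0367) and Triobp (-0.66, 0.0434). Grxcr2 was the exception: its difference of -0.52 (SE 0.31, adjusted p 0.513) was not called with the block either (0.127), and Grxcr2 was lower in mutants of both organs. Organ and kit cannot be told apart here either.

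Levels were compared between genes as CPM per kb of merged exons, since the exon length ranged from 1071 bases for Grxcr1 to 18536 for Pkhd1l1. In mutant cochleae Myo6 stood at a mean level of 194 CPM per kb and Ptprq at 97.1, followed by Grxcr1 at 25.9, Grxcr2 at 20.6, Triobp at 18.6, Gpsm2 at 14.9, Pkhd1l1 at 6.02, Tprn at 3.02, Kncn at 1.33 and Strc at 0.995. Of these neighbours, Grxcr2 and Triobp overlapped in their libraries, as did Kncn and Strc. In heterozygous cochleae the mean levels were 268 CPM per kb for Myo6, 187 for Ptprq, 65.1 for Grxcr1, 46.8 for Grxcr2, 26.1 for Pkhd1l1, 24.1 for Triobp, 20.1 for Gpsm2, 19.0 for Kncn, 7.86 for Strc and 5.48 for Tprn. There the runs from Grxcr1 to Triobp, Gpsm2 with Kncn, and Strc with Tprn overlapped between neighbours. Kncn and Strc were the 2 lowest in mutant cochleae, whereas Tprn was lowest in heterozygous cochleae.

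In mutant vestibules the mean levels were 222 CPM per kb for Myo6, 144 for Ptprq, 135 for Grxcr2, 57.5 for Grxcr1, 50.6 for Triobp, 45.4 for Kncn, 31.9 for Gpsm2, 26.3 for Strc, 13.2 for Tprn and 0.578 for Pkhd1l1. In heterozygous vestibules they were 199 for Grxcr2, 157 for Myo6, 134 for Ptprq, 62.9 for Kncn, 42.5 for Grxcr1, 38.3 for Triobp, 32.7 for Strc, 27.1 for Gpsm2, 9.78 for Tprn and 0.178 for Pkhd1l1. Grxcr2 stood above Myo6 without overlap in heterozygotes and below it without overlap in mutants, while Pkhd1l1 was lowest in both genotypes. Overlapping neighbours were Ptprq with Grxcr2, Grxcr1 with Triobp and Triobp with Kncn in mutants, and Myo6 with Ptprq, Grxcr1 with Triobp and Triobp with Strc in heterozygotes. Of the summed CPM per kb of the 10 genes, Myo6 made up 50.4% to 50.8% in mutant cochleae, against 37.6% to 41.6% in heterozygous cochleae. In the vestibule its share was 26.4% to 33.0% in mutants, against 19.1% to 24.0% in heterozygotes.

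**Figure D3:**
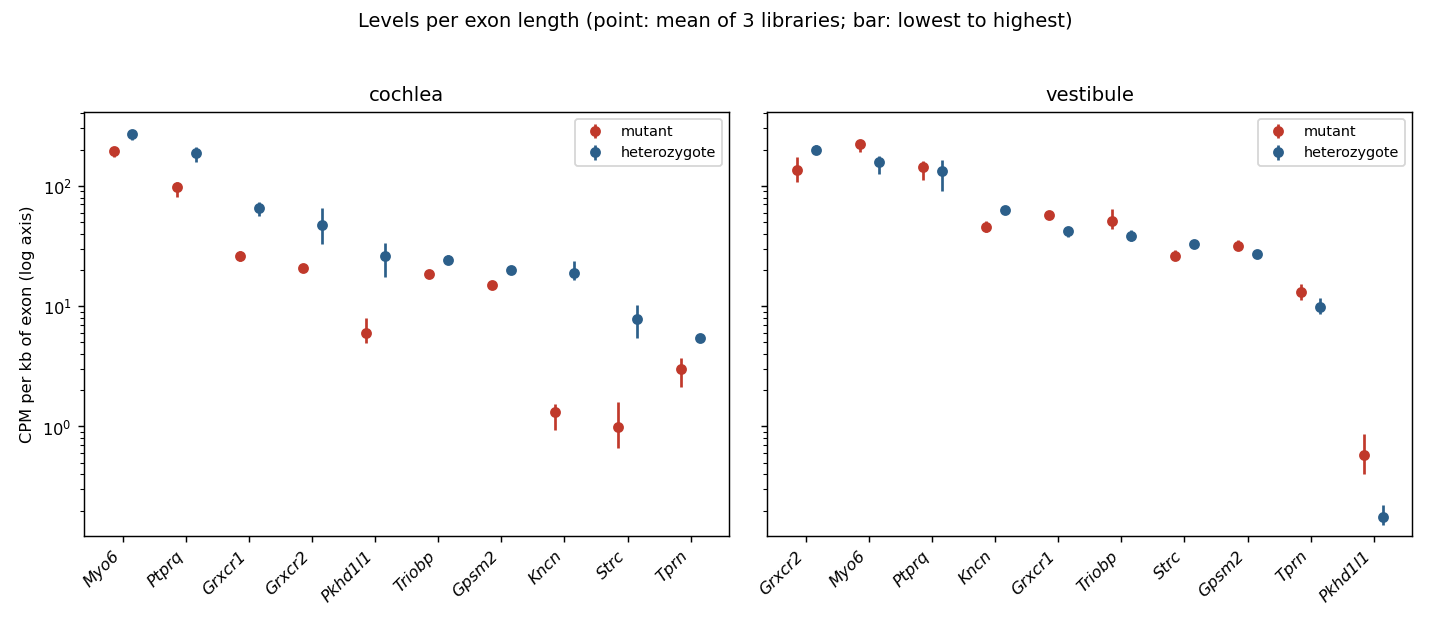
Mean CPM per kb of exon on a log axis for each gene in the cochlea (left panel) and vestibule (right panel), mutant (red) left of heterozygote (blue), with bars from the lowest to the highest of 3 libraries and genes ordered by the heterozygous mean. In the cochlea the mutant values of Kncn and Strc, at 1.33 and 0.995 CPM per kb, lie lowest; in the vestibule Pkhd1l1 lies lowest in both genotypes, at 0.578 in mutants and 0.178 in heterozygotes.

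The summed hair cell markers differed between genotypes as well, in opposite directions in the cochlea and the vestibule. In the cochlea, where the sum was lower in mutants, 3 of the 8 were called lower (Myo7a, Pvalb and Rasd2), and with the replicate block 5 were called lower and 1 higher. Of all genes tested, 2.52% were called lower, and 4.31% with the block. The 1 higher marker was Atoh1, a transcription factor that starts hair cell formation, at 69.3 ± 3.96 CPM in mutants and 51.0 ± 13.9 CPM in heterozygotes (log2 fold change 0.47, SE 0.18, adjusted p 0.254) and with an adjusted p of 0.0323 with the block. In the vestibule, where the sum was higher, 3 of the 8 were called higher (Atoh1, Pvalb and Rasd2), and 6 with the block. Of all genes tested, 2.41% were called higher there, and 10.5% with the block. The part of the markers in the results on the 10 genes was not tested. Set against the marker sum of the same library, Kncn in the cochlea was 0.358% to 0.516% of it in mutants and 4.14% to 5.27% in heterozygotes. Strc was 0.589% to 1.34% of the sum in mutants and 3.59% to 5.62% in heterozygotes. Pkhd1l1 was 11.9% to 19.9% of the sum in mutants and 34.3% to 54.6% in heterozygotes. Ptprq, Grxcr1 and Grxcr2 were also lower without overlap on this scale, so the 6 genes called in the cochlea were lower relative to the sum of these markers too. The percentages depend on which markers are summed, and the share of all genes lower on this scale was not computed. Tprn, Myo6 and Gpsm2 overlapped, with Myo6 at 316% to 334% of the sum in mutants and 303% to 328% in heterozygotes, and Triobp was higher, at 30.0% to 34.0% in mutants and 26.9% to 29.8% in heterozygotes.

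In the vestibule 6 genes were lower relative to the marker sum without overlap and 0 higher. The higher marker sum in mutants lowers every such percentage, and the share over all genes was not computed here either. Grxcr2 was 8.60% to 10.5% of the sum in mutants and 22.2% to 24.3% in heterozygotes. Kncn was 3.89% to 4.41% in mutants and 8.94% to 9.78% in heterozygotes, and Strc was 4.57% to 7.33% in mutants and 10.6% to 13.0% in heterozygotes. Tprn, Triobp and Gpsm2 were the others, all of which had higher mean CPM in mutants. Pkhd1l1, Ptprq, Grxcr1 and Myo6 overlapped. Of the markers in the sum, Myo7a did not pass the test there (log2 fold change 0.10, adjusted p 0.774) while Rasd2 rose by 1.59 and Atoh1 by 1.99 on the log2 scale, so these percentages depend on which markers are summed.

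**Figure D4:**
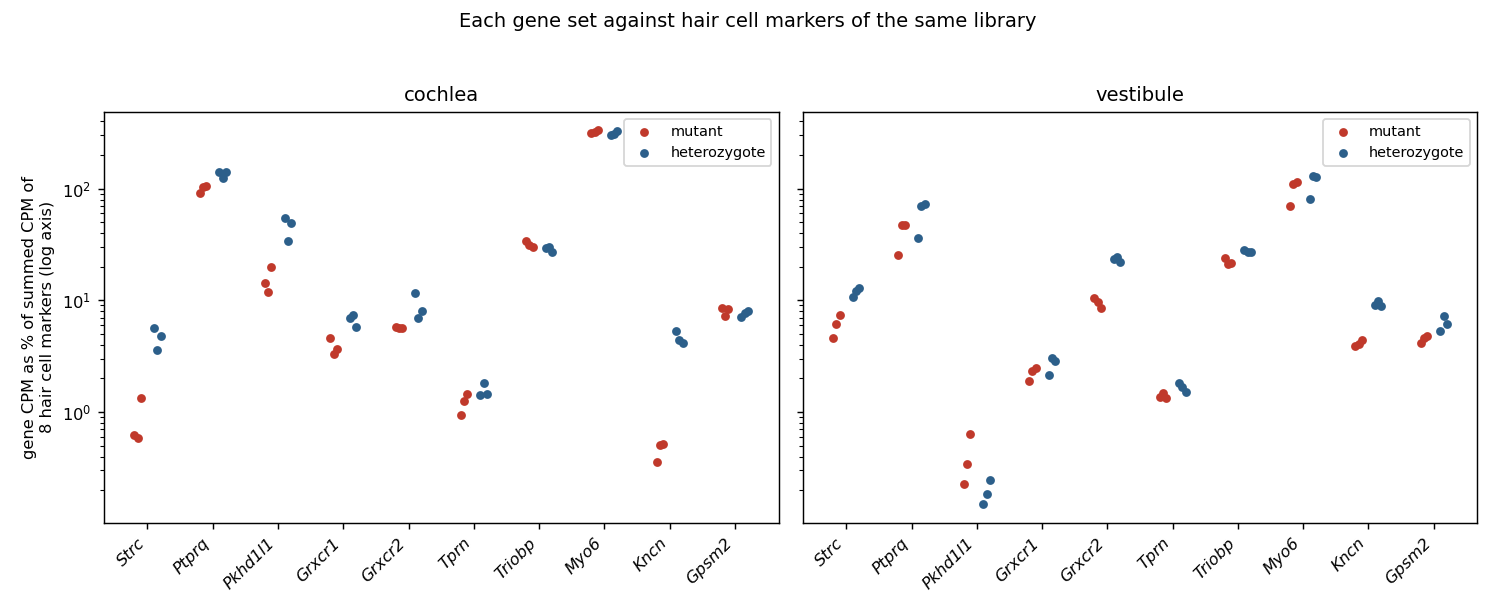
CPM of each gene as a percentage of the summed CPM of 8 hair cell markers in the same library, on a log axis, in the cochlea (left panel) and vestibule (right panel), with 3 mutant libraries (red) left of 3 heterozygous libraries (blue). In the cochlea Kncn shows the widest gap, 0.358% to 0.516% in mutants and 4.14% to 5.27% in heterozygotes, and in the vestibule no gene lies higher in mutants without overlap.

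Some lists of marker genes of other cell types also differed between genotypes, but which cells these transcripts came from was not tested. Over all genes tested, limma called 1.90% higher and 2.52% lower in the cochlea, and 2.41% and 1.09% in the vestibule. The sum of 7 neuronal markers was 1844 to 1921 CPM in mutant cochleae, against 951 to 1101 CPM in heterozygous cochleae, with 5 of 7 called higher. In the vestibule it was 2248 to 2343 CPM in mutants, against 1305 to 1507 CPM in heterozygotes, with 3 of 6 tested called higher. The block called 6 of 7 neuronal markers higher in the cochlea and 5 of 6 in the vestibule. In each organ 1 neuronal marker had a negative log2 fold change. Granulocyte markers summed to 3.87 to 9.37 CPM in mutant cochleae, against 29.1 to 53.0 CPM in heterozygous cochleae, and to 11.6 to 12.5 CPM in mutant vestibules, against 75.9 to 126 CPM in heterozygous vestibules. Of the granulocyte markers tested, 3 of 4 were called lower in the cochlea and 5 of 6 in the vestibule, and up to 4 of the 7 (Ngp, Ltf, Camp and Elane) were at 0 in a mutant cochlear library. Mesenchyme markers summed to 991 to 1341 CPM in mutant vestibules, against 1841 to 2360 CPM in heterozygous vestibules, and glial markers to 186 to 221 CPM in mutant vestibules, against 326 to 358 CPM in heterozygous vestibules, with 2 of 7 and 1 of 6 called lower. With the replicate block all 7 mesenchyme and all 6 glial markers were called lower in the vestibule, beside 12.8% of all genes in that fit. In the cochlea these 2 sums overlapped between genotypes, as did the sums of supporting cell markers in both organs. Of 10 supporting cell markers limma called 1 lower in the cochlea, S100a1 (log2 fold change -0.75, SE 0.14, adjusted p 0.00448). The block called 2 supporting cell markers higher and 3 lower in the vestibule, beside 10.5% of all genes called higher and 12.8% lower in that fit. Macrophage markers summed to 2662 to 3264 CPM in mutant cochleae, against 2176 to 2735 CPM in heterozygous cochleae, and these sums overlapped in both organs. Of the 10 macrophage markers 2 (Lyz2 and Fcgr3) were called higher in the cochlea, and 2 were called lower in the vestibule with the block. The mitochondrially encoded transcripts summed to 1238 to 5072 CPM in mutant vestibules, against 2670 to 8459 CPM in heterozygous vestibules. All 6 of them that were tested had negative log2 fold changes there, with a median of -1.08; limma called 0 and had 3 lower at an unadjusted p under 0.05, edgeR and DESeq2 called 0, and the block called 6 lower. What these markers and transcripts contribute to the results on the 10 genes was not tested.

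The 5 lists of related genes show the setting of these changes. Of 10 genes of bundle links and surface proteins, 6 fell in the cochlea and 0 rose, with a median log2 fold change of -0.81. Of all genes tested, 2.52% were called lower and 1.90% higher there. Among the links 8 log2 fold changes were negative and 2 positive. Cdh23, the upper part of the tip link, averaged 61.1 ± 8.23 CPM in mutants and 217 ± 62.7 CPM in heterozygotes (log2 fold change -1.77, SE 0.19, adjusted p 8.56e-05). Adgrv1, a giant receptor of the ankle links, averaged 116 ± 24.8 CPM in mutants and 316 ± 63.0 CPM in heterozygotes (log2 fold change -1.44, SE 0.18, adjusted p 0.00022). Pcdh15, the lower part of the tip link, averaged 199 ± 16.6 CPM in mutants and 330.2 ± 46.4 CPM in heterozygotes (log2 fold change -0.72, SE 0.13, adjusted p 0.00558). These transcripts for surface proteins thus fell beside Strc, Pkhd1l1 and Ptprq. By contrast, of 6 tested genes for proteins of the tectorial and otolithic matrix that bundles attach to, 0 were called in the cochlea by limma, edgeR or DESeq2 and 0 at an unadjusted p under 0.05, with a median of 0.07.

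Of 9 tested genes of the stereocilia base, 1 fell in the cochlea, and the replicate block called 3 lower. Over all genes tested these shares were 2.52% and 4.31%. The called gene was Gipc3, a PDZ adaptor that binds Myo6, which averaged 2.53 ± 0.834 CPM in mutants and 15.1 ± 2.54 CPM in heterozygotes (log2 fold change -2.20, SE 0.25, adjusted p 0.000131). Of 12 genes of bundle polarity, among them the G protein partners of Gpsm2, 1 fell: Celsr1, a core planar polarity cadherin, averaged 47.7 ± 8.28 CPM in mutants and 93.7 ± 7.89 CPM in heterozygotes (log2 fold change -0.97, SE 0.15, adjusted p 0.00123). Of 10 genes of the kinocilium and ciliary transport, 1 fell: Bbs1, a subunit of the BBSome, averaged 94.7 ± 6.50 CPM in mutants and 146 ± 7.59 CPM in heterozygotes (log2 fold change -0.62, SE 0.12, adjusted p 0.00689). With the block 2 polarity genes and 2 ciliary genes were called lower, beside 4.31% of all genes in that fit. The medians of these 3 lists were -0.31, -0.09 and -0.09, and Kncn at -3.49, Grxcr1 at -1.29 and Grxcr2 at -1.11 lay below all of them. So did Tprn at -0.82, Myo6 at -0.47, Gpsm2 at -0.43 and Triobp at -0.37, none of which was called. Gipc3, at -2.20, lay below Grxcr1 and Grxcr2. In the vestibule limma called 0 genes of the 5 lists. At an unadjusted p under 0.05 it had 3 higher and 1 lower among links, 1 lower in the matrix, 1 higher and 3 lower at the base, 3 higher in polarity and 3 higher in ciliary transport. Of all genes tested, 7.90% were higher and 8.20% lower by that rule. There edgeR also called 0 genes of the 5 lists, and DESeq2 called 3 links, 1 polarity gene and 2 ciliary genes higher. DESeq2 called 5.22% of all genes higher. The block called 4 links higher and 2 lower, 2 matrix genes lower, 1 gene of the base higher and 3 lower, 4 polarity genes higher and 3 ciliary genes higher. These counts stand beside 10.5% of all genes called higher and 12.8% called lower in that fit.

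**Figure D5:**
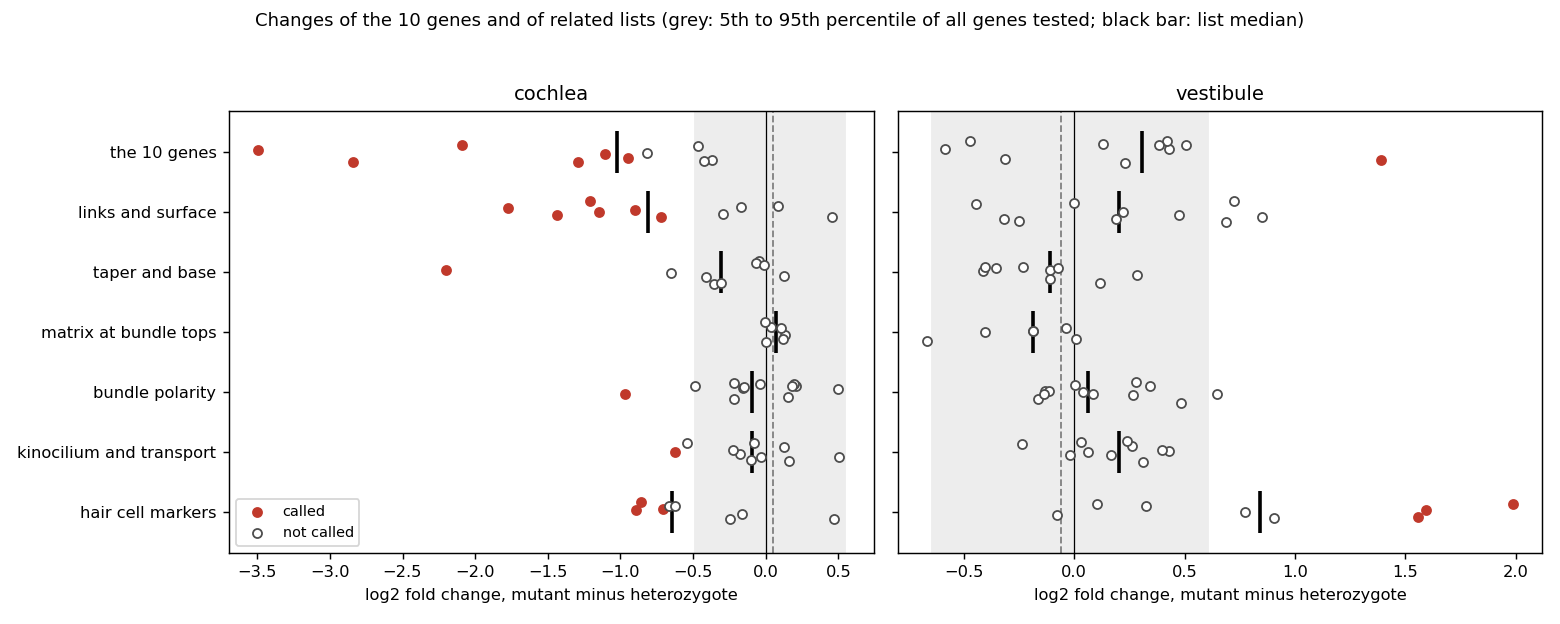
Log2 fold change, mutant minus heterozygote, of each tested gene of the 10 and of related lists in the cochlea (left) and vestibule (right), filled where called in limma; the black bar is the list median, the grey band holds the middle of all genes tested and the dashed line their median. In the cochlea the 10 genes have a median of -1.03 and the bundle links of -0.81, while the matrix list has 0.07; in the vestibule Pkhd1l1 is the called gene of the 10.

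For the 5 genes with a called log2 fold change of at least 1 in size, the genes closest in profile were sought by the root mean square difference of log2(CPM + 1), centred within each organ, over 12 libraries and 14674 genes. Closest to Strc were Kndc1 at 0.24, Strip2 at 0.24 and Ofcc1 at 0.27. Closest to Kncn were Elfn1 at 0.28, Pkn3 at 0.29 and Kcna10 at 0.34. Closest to Grxcr1 were Msrb3, Mindy4b-ps and Spag6l, at 0.16 to 0.17, and closest to Grxcr2 were Galnt13, Srd5a1 and Bmp3, all at 0.13. Pkhd1l1 had no neighbour as near: Veph1, Hs3st3b1 and Psat1 stood at 0.43 to 0.45. All 15 neighbours were called lower in the cochlea, which the search itself favours, since the genes they were matched to all fell there. The points share libraries, and the measure is a description.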

How the data were processed

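RNA from HA immunoprecipitates was sequenced in 12 libraries, 3 per genotype and organ, described by the series as biological triplicates. The deposited values were CPM, which the authors made from read counts per gene; per the submitters' processing notes TopHat and GRCm38 were used, with no version, and the counter and whether it used strand are not given in the sources used here. For 100% of values the CPM were whole multiples of 1 read (within 1e-06), so whole counts were recovered for count tests. Coordinates and exon lengths were read from GENCODE M21 (GRCm38); 28300 cochlear and 24703 vestibular gene identifiers matched it.

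A gene was tested in an organ if 3 or more of its 6 libraries reached 1 CPM, which left 17985 cochlear genes, 15595 vestibular genes and 14674 in both. Mutants were compared with heterozygotes in each organ by limma 3.58.1 (trend, R 4.3.3) on log2(CPM + 1), with Benjamini-Hochberg adjustment over all genes tested and a threshold of 0.05. Organs were compared through an interaction term over 12 libraries. The script was tested on simulated data. Figures used matplotlib 3.10.9.

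Alternatives were pseudocounts of 0.25 and 4, no filter, a filter of 5 CPM, median-of-ratios and TMM rescaling, a replicate block, edgeR 4.0.16 (quasi-likelihood) and DESeq2 1.42.0 on the recovered reads, each library left out, and both cochlear replicate 3 or both vestibular replicate 1 libraries left out. Replicate numbers come from the titles, and no label says that they pair samples. Deviations from the genotype mean were correlated between mutant and heterozygous libraries. Cochlear libraries of the same number gave 0.226, 0.226 and 0.42, and those of different numbers -0.24 to 0.0127. Vestibular libraries of the same number gave 0.766, 0.508 and 0.599. Those of different numbers were negative wherever replicate 1 took part, but 0.22 and 0.318 between replicates 2 and 3. The evidence for pairing is thus weaker in the cochlea, and in the vestibule it partly reflects replicate 1 standing apart. The numbers were taken to pair the samples in the block only, and limma calls are without the block unless stated. Blocked values are given where they change a call on the 10 genes or a count of called markers by over 1.5 times.

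The 10 genes and all lists were chosen with earlier results of these data known, so no p is adjusted over them alone. Named genes were the 10, Gfi1, at most 4 called genes per list and organ by smallest p, and the 3 nearest profiles of each gene with a called log2 fold change of at least 1 in size, leaving out predicted genes; a gene that this rule takes is not reported here.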

Additional observations from a re-analysis of the deposited data

Results flagged for a closer look

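For 6 of the 10 genes the change in mutants was called different between organs in limma, all more negative in the cochlea. Over the genes tested in both organs 2.43% were called in that direction. The cochlear change minus the vestibular change was -2.53 for Strc, -3.48 for Pkhd1l1, -3.02 for Kncn, -1.72 for Grxcr1, -1.24 for Tprn and -0.66 for Gpsm2, on the log2(CPM + 1) scale. Of the 12 fits that left out a single library, 5 kept the call of Tprn and 0 kept that of Gpsm2. For Pkhd1l1 both organs passed the test, with a fall in the cochlea and a rise in the vestibule. The vestibular call of Pkhd1l1 was kept in 1 of 6 fits that left out a single library. Organ and library kit cannot be told apart in these values.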

How the results depend on the processing

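The genes called lower in the cochlea (Kncn, Strc, Pkhd1l1, Grxcr1, Grxcr2 and Ptprq) were called under all 16 cochlear alternatives. The replicate block raised the called genes to 1532 in the cochlea, 3634 in the vestibule and 1955 for the difference between organs, against 794, 546 and 461 without it; of the 10 genes it called 10 lower in the cochlea and 5 higher and 3 lower in the vestibule, and it changed no other call on the 10 than those given with the results. DESeq2 called 1234 genes in the vestibule, with 3 of the 10 higher, and 815 for the difference. With no filter 358 genes were called in the vestibule and 0 of the 10 higher, as was the case for the 10 at a pseudocount of 4. Without both vestibular replicate 1 libraries 779 genes were called in the vestibule, with 2 of the 10 higher and 2 lower, and without both cochlear replicate 3 libraries 270 genes were called for the difference. Leaving out single libraries gave 530 to 777 called genes in the cochlea, 216 to 510 in the vestibule and 300 to 449 for the difference, with 0 to 1 of the 10 higher and 0 to 1 lower in the vestibule. The 1 reversal was Ptprq in the vestibule, at -0.13 without heterozygous replicate 1 and at 0.30 without mutant replicate 1. The causes were not tested, beyond the smaller numbers of libraries or the larger number of genes that the alternatives themselves bring. Rescaling by TMM or median of ratios added Tprn and Gpsm2 to the cochlear calls and moved the median of all genes by less than 0.1. Depth limits Strc, Kncn and Tprn in mutant cochleae, with 19 to 93 reads per library.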
